A study of Homo sapiens with 15 samples.

Results

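Interleukin receptor chains are the cell-surface proteins through which a cell reads interleukins, the signalling proteins of immune cells. The levels of 10 such chains were followed in THP-1 cells exposed to bacterial extracellular vesicles (BEVs). They are IL10RA, IL7R, IL15RA, IL2RA, IL4R, IL13RA1, IL6R, IL27RA, IL18R1 and IL18RAP, and they were taken by gene symbol from a table of 60286 genes. All 10 had enough counts to be among the 17198 genes tested. IL2RA, IL18R1 and IL18RAP did not reach the count minimum of that filter in every control library and entered the test through the groups in which they were higher, so calls are counted over the other 7.

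The cells were THP-1, a human monocytic leukaemia line, and RNA was sequenced from 5 groups of 3 libraries. The controls (NC) were given PBS. Escherichia coli BEVs were given at 1 μg/mL after isolation by ultracentrifugation (UC; group EUC) or by ε-poly-L-lysine precipitation (PL; group EPL), and Staphylococcus aureus BEVs at 10 μg/mL after the same 2 procedures (groups SUC and SPL). The methods of the study give 6 h of incubation, whereas the labels give Day 0, and all groups share one cell line, for which the labels name no genetic change. The species and the dose of the BEVs changed together and cannot be told apart. Nothing in the labels names separate cultures, and the methods say only that each group was run in triplicate, so the p-values measure only the spread between these libraries, which may be technical.

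Most cytokine receptors are built from several chains that signal together. A private chain, such as the IL-10, IL-7 or IL-15 receptor α chain, binds one or a few cytokines. A shared chain, such as gp130 (IL6ST) or the common γ chain (IL2RG), serves many receptors. Most of these receptors carry Janus kinases (JAKs) that activate STAT transcription factors, which SOCS proteins restrain. The IL-18 receptor instead belongs to the IL-1 receptor family and signals through MYD88 and IRAK kinases, as Toll-like receptors do. Monocytes are known for high IL-6 receptor levels, and IL-7 and IL-2 receptor α chains are best known from lymphocytes.

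The libraries held 14399421 to 16637345 counted reads each. The common biological coefficient of variation, a measure of the spread between libraries of one group, was 0.118. All 10 monocyte markers examined had counts, with a summed level of 1107–1145 CPM (counts scaled to the library size) in NC and 1575–2178 CPM in the stimulated libraries. Most of that difference is SPI1, at 456–487 CPM in NC and 896–1388 CPM in the others. MPO, the myeloperoxidase gene, was a lower DEG (at least 2-fold, adjusted p at most 0.01) in all 4 comparisons with NC (log2 −1.59, −1.31, −1.31 and −1.27 in EUC, EPL, SUC and SPL), CD33 fell in all 4 and LYZ in EUC, SUC and SPL. Of the 9 tested markers, 3 rose at that p threshold in each comparison and 3, 2, 3 and 3 fell. Among all tested genes 16.5%, 16%, 12.4% and 13.3% rose and 14%, 13.2%, 9.15% and 10.6% fell. In EUC the 3 that rose were SPI1 (log2 1.35), CD14 (1.23) and CSF1R (0.47), with adjusted p of at most 0.00341 (edgeR). The median log2 fold change of the 9 tested markers was −0.00135, −0.0386, −0.0121 and 0.00875. One of the monocyte markers, CD68, had at most 3 counts per library, and 85.6% of its exon bases are shared with other genes. Of 10 T and NK cell markers, CD3D and CD3G were at 0 in all 15 libraries and CD3E had 1 count in all. The summed level of that list was 11.6–14.9 CPM in NC and 15.3–20.7 CPM in the other groups, nearly all of it NKG7. TRAC, the T cell receptor α constant gene on that list, went from 1–3 counts per library in NC to 2–15, and was a higher DEG in EUC (log2 2.57, adjusted p = 0.00192) and SUC (2.36, adjusted p = 0.00576) but not in EPL (1.75, adjusted p = 0.0371) or SPL (1.64, adjusted p = 0.0602). With so few counts in NC it entered the test through stimulated groups, so these calls are named and not counted. Markers of B cells summed to 9.47–11.1 CPM in NC and 12.2–27.1 CPM after stimulation, those of fibroblasts and epithelium to 0.640–0.941 and 2.06–6.96 CPM, and those of erythroid cells to at most 0.276 CPM. Per group, 4–6 of the 10 T and NK cell markers, 4–5 of the 5 B cell markers, 2–4 of the 5 fibroblast and epithelial markers and 1–2 of the 5 erythroid markers had a count, and KRT19, HBB and HBA1 were at 0 in all 15 libraries. PAX5 of the B cell list (log2 1.71, 1.75, 1.26 and 1.56 in EUC, EPL, SUC and SPL against NC) and COL1A1 of the fibroblast list (2.24, 2.58, 1.31 and 1.72) were higher DEGs in all 4 comparisons, and DCN had 0–1 counts per library in NC and 7–30 in the others. The part of these shifts in the receptor levels was not tested. In RNA from whole cultures, fewer cells with a transcript and less transcript per cell cannot be told apart.

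The DNA before a RefSeq start of 4 of the receptor genes is shown because these genes rose by very different amounts. Each line is the 250 bases before the RefSeq start on GRCh38.p14, 5′ to 3′ on the gene's strand, with matches to 5 motifs of cytokine and Toll-like receptor signalling in capitals. The motifs, searched on both strands, were the κB motif of NF-κB, the GAS motif of STAT factors (TTCNNNGAA), the interferon response element (GAAANNGAAA), the AP-1 motif (TGAGTCA or TGACTCA) and the cyclic AMP response element (TGACGTCA).
IL7R: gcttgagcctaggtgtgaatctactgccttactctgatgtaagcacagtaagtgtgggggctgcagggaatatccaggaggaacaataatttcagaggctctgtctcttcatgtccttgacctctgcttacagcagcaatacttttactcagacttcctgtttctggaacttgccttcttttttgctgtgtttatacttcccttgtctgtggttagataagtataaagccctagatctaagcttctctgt
IL10RA: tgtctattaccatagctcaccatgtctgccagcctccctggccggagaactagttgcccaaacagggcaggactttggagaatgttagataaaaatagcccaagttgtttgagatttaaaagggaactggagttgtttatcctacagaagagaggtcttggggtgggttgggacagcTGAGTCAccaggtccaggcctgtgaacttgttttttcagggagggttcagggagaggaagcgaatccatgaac
IL27RA: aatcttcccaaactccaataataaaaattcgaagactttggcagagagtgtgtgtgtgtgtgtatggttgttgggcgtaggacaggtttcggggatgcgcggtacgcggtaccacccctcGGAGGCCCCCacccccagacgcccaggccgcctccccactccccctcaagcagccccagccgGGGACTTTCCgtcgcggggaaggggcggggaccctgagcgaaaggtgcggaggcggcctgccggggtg
IL2RA: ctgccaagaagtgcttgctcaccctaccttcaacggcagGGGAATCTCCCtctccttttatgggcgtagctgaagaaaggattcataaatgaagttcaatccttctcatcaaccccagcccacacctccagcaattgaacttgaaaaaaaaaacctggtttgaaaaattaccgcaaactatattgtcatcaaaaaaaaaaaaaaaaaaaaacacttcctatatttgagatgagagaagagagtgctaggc
The IL7R stretch (chr5:35856641-35856890 on the plus strand) held none of the 5. The IL10RA stretch (chr11:117989695-117989944 on the plus strand) held an AP-1 match 67–73 bases before the start. Both stretches lie within the GENCODE spans of their genes, which begin at chr5:35852695 for IL7R and chr11:117986370 for IL10RA. The bases before those GENCODE starts were not searched. IL27RA (chr19:14031512-14031761 on the plus strand) held κB matches at 121–130 and 59–68 bases, and IL2RA (chr10:6062368-6062617 on the minus strand) held 2 κB matches that overlap by all but 1 base on each side. The other genes have up to 4 RefSeq starts each, which gave 16 stretches for the 10 genes. A κB match stood in 5 of the 16, namely those of IL27RA, IL2RA and IL4R, 1 of 4 of IL15RA and 1 of 2 of IL18R1. Among all 35116 promoters of this length the shares were 9.96% for κB, 6.57% for GAS, 3.02% for the interferon element, 4.20% for AP-1 and 1.65% for the cyclic AMP element. IL15RA had 3 stretches with an AP-1 match, of which 2 overlap and share it, and another with a GAS match. Interferon element matches stood in 1 stretch of IL18R1 and 1 of IL18RAP, and the stretches of IL6R and IL13RA1 held no match. A match is a run of letters, not a bound site.

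Most of the chains were more abundant after BEV exposure. Differentially expressed genes (DEGs) are those that changed at least 2-fold with an adjusted p no higher than 0.01, and "rose" and "fell" are used for genes past the p threshold, with or without the fold threshold. Of the 7 chains at the count minimum in NC, 4 (IL10RA, IL7R, IL15RA and IL27RA) were higher DEGs in all 4 comparisons with NC, as were 6.33% of all tested genes. Taking each comparison alone, 9.43%, 9.38%, 6.82% and 7.76% of all tested genes were higher DEGs for EUC, EPL, SUC and SPL. IL18R1 and IL18RAP, rare in NC, were also higher DEGs in all 4 and are not counted. No chain was a lower DEG in any of the 4, where 5.75%, 5.15%, 3.06% and 3.7% of all tested genes were, and 2.41% in all 4. At the p threshold alone IL4R also rose in all 4, which makes 5 of the 7 chains beside 10.9% of all tested genes, and IL6R fell in all 4 (7.67%). All genes that rose at that threshold were 16.5% for EUC, 16% for EPL, 12.4% for SUC and 13.3% for SPL, and those that fell were 14%, 13.2%, 9.15% and 10.6%. The median log2 fold change of the 7 chains was 1.67, 1.62, 1.44 and 1.52 in EUC, EPL, SUC and SPL, beside 0.000832, −0.000806, 0.00673 and −0.00651 over all tested genes. The shares and medians of all tested genes also cover genes below the count minimum in NC, which the 7 chains do not. The 4 comparisons share the same 3 NC libraries. All 12 stimulated libraries lay above all 3 NC libraries for 5 of the 7 chains (17.5% of all tested genes), below them for IL6R (16.1%), and overlapped them for IL13RA1.

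**Figure D1:**
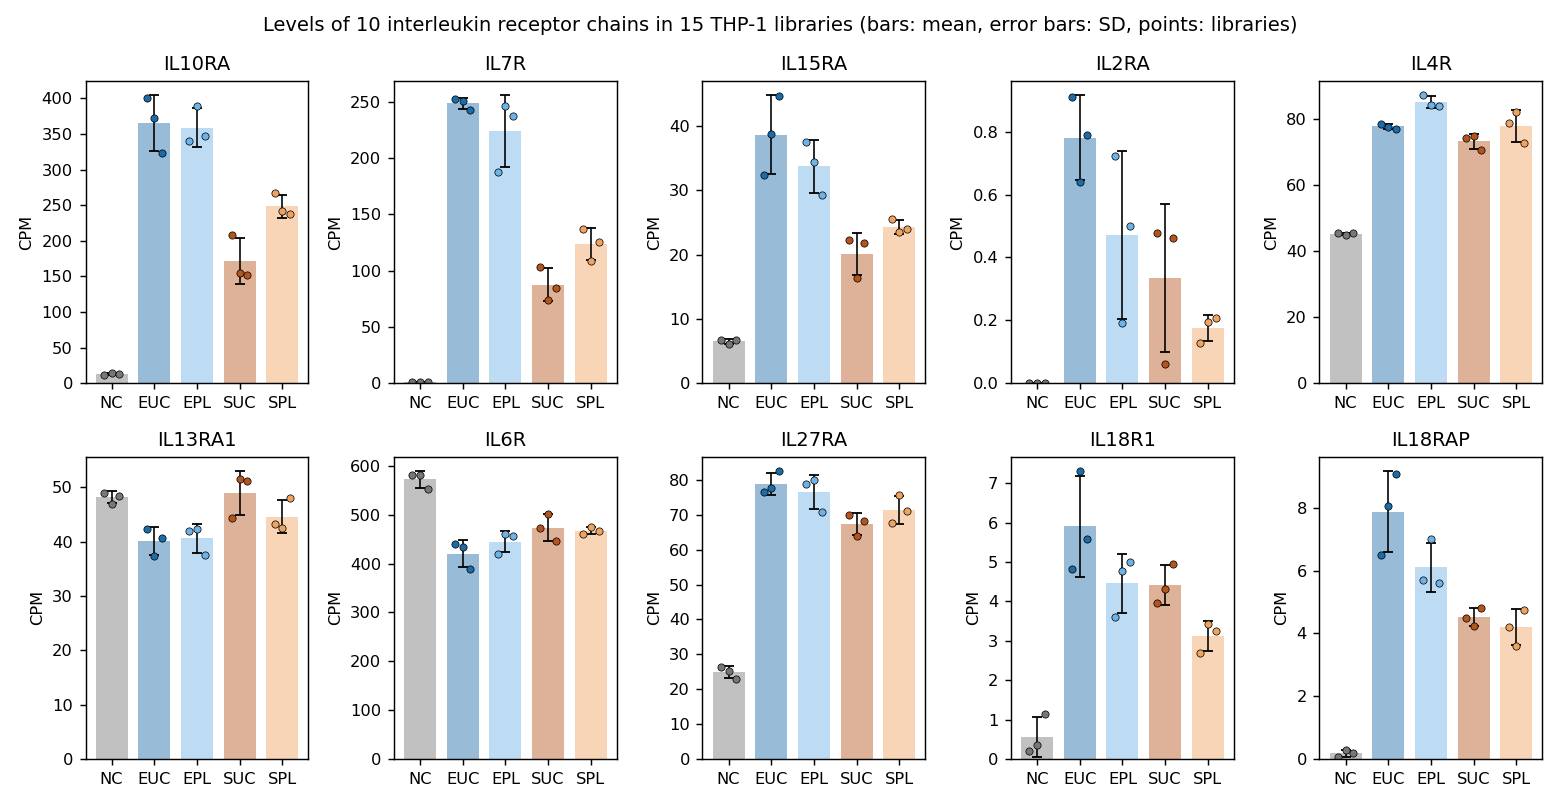
Level of each receptor chain (CPM, linear axes from 0) in the 15 libraries by group; bars are means, error bars SD over 3 libraries and points single libraries. IL7R stood at 0.775–1.47 CPM in NC and 74.2–253 CPM in the stimulated libraries, whereas IL6R was lower in every stimulated library than in NC.

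IL10RA, the ligand-binding chain of the receptor for the anti-inflammatory cytokine IL-10, lies at chr11:117986370-118003037 (hg38). Its levels were 11.5, 14.1 and 12.6 CPM in NC, 400.0, 372 and 323 CPM for EUC, 339, 389.8 and 348 CPM for EPL, 208, 155 and 152 CPM for SUC, and 267, 242 and 237 CPM for SPL. Every stimulated library was more than 10 times above every NC library, and the E. coli libraries were above the S. aureus libraries without overlap. The fitted rise was 28.6-fold for EUC (log2 4.84, SE 0.14, adjusted p = 4.12e-14, edgeR), 28.2-fold for EPL (4.82, SE 0.14), 13.5-fold for SUC (3.75, SE 0.14) and 19.5-fold for SPL (4.29, SE 0.14). The second chain of this receptor, IL10RB, had log2 fold changes of 0.37, 0.73, 0.66 and 0.73 that did not pass, with adjusted p of 0.249, 0.0219, 0.0472 and 0.0267. A readthrough gene covers 21.6% of the exon bases of IL10RB, so its counts are uncertain. The ligand IL10 had no count in NC and 19, 10, 8 and 9 counts over the 3 libraries of EUC, EPL, SUC and SPL, too few to be tested.

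IL7R, the α chain that IL-7 and thymic stromal lymphopoietin (TSLP) receptors share, showed the largest fitted rise of the 10, leaving out IL2RA, which had no count in NC. It lies at chr5:35852695-35879603. Its levels were 1.47, 1.00 and 0.775 CPM in NC (13–23 counts per library), 253, 250.4 and 243 CPM for EUC, 187, 246 and 238 CPM for EPL, 104, 74.2 and 85.0 CPM for SUC, and 137, 108 and 126 CPM for SPL. The gene went from a few counts to one of the highest levels among the 10 chains, and the 6 E. coli libraries stood above the 6 S. aureus libraries. The fitted fold was 230 for EUC (95% interval 170–311), 207 for EPL (153–280), 80.9 for SUC (60.01–109) and 114 for SPL (84.7–154), with adjusted p of 1.11e-14, 1.64e-14, 2.10e-13 and 7.17e-14. CRLF2, which pairs with IL7R in the TSLP receptor, rose in EUC (log2 2.17, SE 0.22), EPL (2.31, SE 0.22) and SPL (1.11, SE 0.24), and had 0.70 (adjusted p = 0.0401) in SUC. Per kilobase of exon, IL7R stood at 0.167 ± 0.026 times CRLF2 in NC and at 8.78 ± 1.76, 6.91 ± 0.91, 8.42 ± 0.86 and 8.85 ± 1.17 times in EUC, EPL, SUC and SPL (mean ± SD, n = 3). The ligand IL7 rose from at most 0.0640 CPM in NC to 0.386–2.37 CPM. Its 2 counts in NC stood against 84, 76, 44 and 39 counts in EUC, EPL, SUC and SPL, a ratio of levels of 44.9 (95% exact binomial interval 12.1–377, counting error only), 40.0 (10.7–336), 23.7 (6.19–202) and 21.1 (5.46–180). TSLP did not pass in any of the 4, with log2 fold changes of 1.09, 0.54, 0.54 and 0.77 and a smallest adjusted p of 0.0176.

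**Figure D2:**
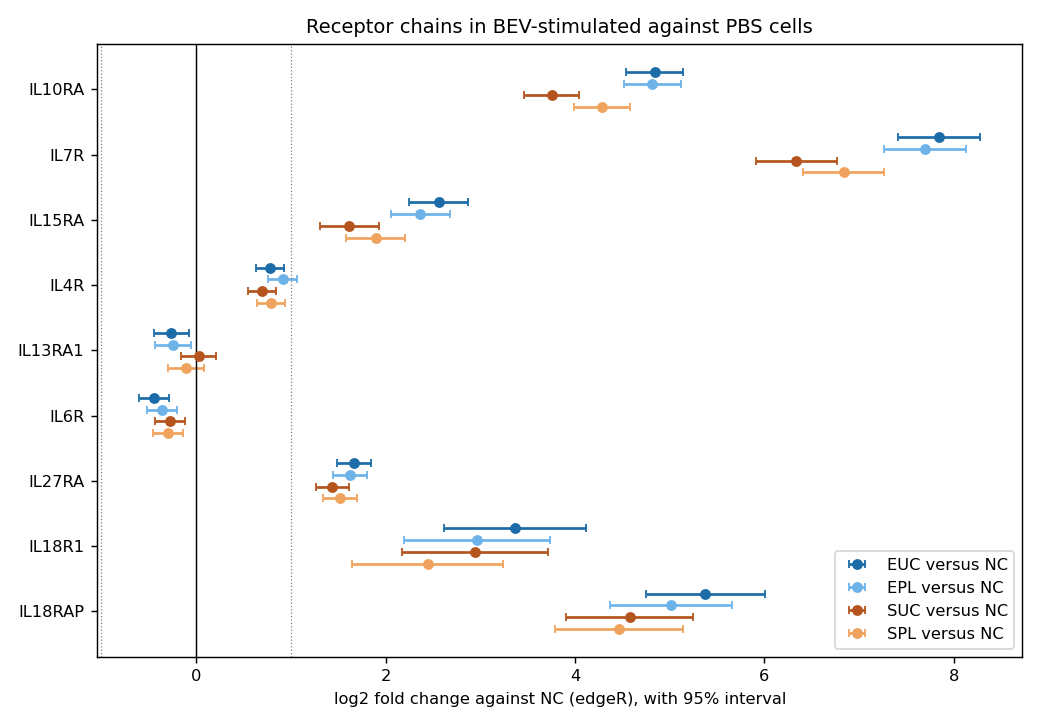
log2 fold change of 9 receptor chains in each BEV group against NC, with 95% intervals from edgeR; dotted lines mark 2-fold changes, and IL2RA is left out because its fitted fold depends on the prior count. IL7R reached 7.84 in EUC and 6.34 in SUC, IL4R stayed between 0 and 1, and IL6R lay below 0.

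IL15RA, the chain that binds IL-15 and can present it to neighbouring cells, and IL2RA, the high-affinity chain of the IL-2 receptor, are neighbours on chromosome 10 (chr10:5943639-5978187 and chr10:6010689-6062370, 32.5 kb apart). IL15RA levels were 6.72, 6.12 and 6.80 CPM in NC, 32.5, 38.8 and 44.7 CPM for EUC, 37.5, 34.4 and 29.3 CPM for EPL, 22.2, 16.4 and 21.8 CPM for SUC, and 25.6, 23.5 and 24.0 CPM for SPL. No stimulated library overlapped NC, and no E. coli library overlapped S. aureus. IL15RA rose 5.90-fold for EUC (log2 2.56, SE 0.15), 5.15-fold for EPL (2.37, SE 0.15), 3.07-fold for SUC (1.62, SE 0.15) and 3.72-fold for SPL (1.90, SE 0.15), with adjusted p of at most 1.94e-07. Its ligand IL15 had only 3–6 counts per library in NC (0.176–0.384 CPM) and entered the test through stimulated groups. Its fitted values against NC are therefore given as a description. They were log2 1.53 in EUC (adjusted p = 0.00612, edgeR), 1.92 in EPL (0.000839), 1.03 in SUC (0.0824) and 1.33 in SPL (0.0199). The difference of IL15 between the species did not pass (log2 0.55, adjusted p = 0.282).

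IL2RA stayed rare in every group. It had 0 counts in each NC library, 14, 10 and 12 for EUC, 11, 3 and 8 for EPL, 7, 1 and 7 for SUC, and 2, 3 and 3 for SPL. Each stimulated library held at least 1 count and no NC library any. Set against a floor of 3 counts over the NC group (0.0607 CPM), the level was at least 12.8-fold higher in EUC, 7.72-fold for EPL, 5.39-fold for SUC and 2.88-fold for SPL, for counting error only. IL2RB, which IL-2 and IL-15 receptors share, did not pass, with log2 fold changes of 0.38, 0.01, 0.47 and 0.52 and adjusted p of 0.257, 0.989, 0.174 and 0.125. The common γ chain gene IL2RG had 0–8 counts per library and was not tested. A readthrough gene covers 51.3% of its exon bases. IL2 had no count in any library.

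IL4R and IL13RA1 together form the receptor that answers both IL-4 and IL-13, and IL4R also pairs with the common γ chain. IL4R (chr16:27313668-27364778) stood at 45.4, 44.9 and 45.5 CPM in NC, 78.7, 77.7 and 77.1 CPM for EUC, 87.3, 84.4 and 83.9 CPM for EPL, 74.5, 74.9 and 70.7 CPM for SUC, and 79.0, 82.4 and 72.8 CPM for SPL. The 12 stimulated libraries were all above NC, and the species overlapped. IL4R rose 1.72-fold for EUC (log2 0.78, SE 0.07), 1.88-fold for EPL (0.91, SE 0.07), 1.62-fold for SUC (0.70, SE 0.07) and 1.72-fold for SPL (0.79, SE 0.07), each with an adjusted p of at most 6.20e-07 and each under the 2-fold threshold. IL13RA1 (chrX:118727133-118794535) stood at 49.0, 46.9 and 48.4 CPM in NC, 42.3, 37.4 and 40.6 CPM for EUC, 41.9, 42.4 and 37.5 CPM for EPL, 44.3, 51.4 and 51.1 CPM for SUC, and 43.3, 42.4 and 48.1 CPM for SPL. It is the one chain whose stimulated libraries lay on both sides of NC. Its log2 fold changes were −0.26 (95% interval −0.45 to −0.08, adjusted p = 0.0245), −0.25 (−0.43 to −0.06, 0.0362), 0.03 (−0.16 to 0.21, 0.86) and −0.11 (−0.30 to 0.08, 0.382) in EUC, EPL, SUC and SPL, and none passed. Per kilobase, IL4R was at 0.744 ± 0.012 times IL13RA1 in NC, and at 1.54 ± 0.09, 1.66 ± 0.10, 1.19 ± 0.12 and 1.39 ± 0.17 times after stimulation. The order of this pair thus differed between NC and every stimulated library, with a lowest ratio of 1.09 there and a highest of 0.757 in NC. IL4 had no count in any library and IL13 had 0–7 per library.

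IL6R and IL27RA are the private chains of receptors that both need gp130, the product of IL6ST. IL6R (chr1:154405193-154469450) was the most abundant of the 10 chains in NC, with 583, 582 and 553 CPM, and stood at 439, 433 and 388 CPM for EUC, 419.7, 459.8 and 457 CPM for EPL, 473, 502 and 447 CPM for SUC, and 460.0, 474 and 467 CPM for SPL. All 12 stimulated libraries were below all NC libraries. IL6R fell by 0.45 on the log2 scale for EUC (SE 0.07, adjusted p = 0.000106), fell by 0.36 for EPL (SE 0.07, 0.000783), fell by 0.27 for SUC (SE 0.07, 0.00901) and fell by 0.29 for SPL (SE 0.07, 0.005), which left 0.734, 0.778, 0.827 and 0.816 of the NC level. The falls in SUC and SPL lost the call when any single library of their comparison was left out, with adjusted p of 0.0127–0.0427 and 0.0133–0.0282, and without the filter on low counts (0.0614 and 0.0277).

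IL27RA, the signalling chain of the IL-27 receptor (chr19:14031762-14053218), moved the other way. It stood at 26.3, 25.2 and 23.0 CPM in NC, 76.5, 77.7 and 82.5 CPM for EUC, 78.7, 79.9 and 70.8 CPM for EPL, 70.03, 63.9 and 68.2 CPM for SUC, and 67.7, 75.6 and 70.9 CPM for SPL. The stimulated libraries lay close together, all above NC. IL27RA rose 3.17-fold for EUC (log2 1.67, SE 0.08), 3.08-fold for EPL (1.62, SE 0.08), 2.71-fold for SUC (1.44, SE 0.08) and 2.87-fold for SPL (1.52, SE 0.08), with adjusted p of at most 5.06e-10. IL6ST rose from 27.1–28.1 CPM to 58.9–86.0 CPM, with log2 fold changes of 1.34, 1.501, 1.37 and 1.29 (SE 0.13 each). Per kilobase, IL6R stood at 36.0 ± 0.91 times IL6ST in NC and at 10.5 ± 0.84, 9.99 ± 0.98, 11.6 ± 1.09 and 12.1 ± 1.10 times in EUC, EPL, SUC and SPL. The ratio of IL27RA to IL6ST was 3.71 ± 0.24 in NC and 4.73 ± 0.87, 4.10 ± 0.78, 3.94 ± 0.59 and 4.38 ± 0.56 in the 4 others. Its EUC and SPL libraries lay above the NC range of 3.48–3.96, and those of EPL and SUC overlapped it.

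The ligands of these receptors differed widely. Of 11 listed, 7 were tested. EBI3 and IL7 were higher DEGs in all 4 comparisons with NC and IL15 in EUC and EPL, each from at most 14 counts per NC library, so they are named and not counted. Of 5 partner chains 4 were tested, with 2, 2, 1 and 2 higher DEGs in EUC, EPL, SUC and SPL, where 9.43%, 9.38%, 6.82% and 7.76% of all tested genes were. EBI3, one subunit of IL-27, had the largest rise among the listed ligands with counts in NC: it went from 0.537–0.823 CPM to 372–577 CPM with E. coli BEVs and 189.5–318 CPM with S. aureus BEVs, and its log2 fold changes were 9.58, 9.37, 8.47 and 8.83. IL27, the other subunit, stood at 0.294–0.448 CPM in NC and 0.138–1.25 CPM after stimulation and did not pass (log2 1.58, 0.93, 1.01 and 0.82, smallest adjusted p 0.0318). IL6 had no count in NC and 54, 30, 25 and 30 counts in EUC, EPL, SUC and SPL, a level at least 19.3, 10.5, 8.99 and 10.8 times higher than the floor of 3 counts over the NC group. ADAM17, a protease that sheds the IL-6 receptor from cells, rose in all 4 (log2 0.81, 0.77, 0.87 and 0.84, SE 0.11 each). ADAM10 (largest log2 0.23) and the IL-18 binding protein gene IL18BP (between −0.31 and 0.09) did not pass, and the decoy receptor gene IL13RA2 was too rare to test.

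IL18R1, which binds IL-18, and IL18RAP, the accessory chain without which the complex does not signal, lie 19.9 kb apart on chromosome 2 (chr2:102311529-102398777 and chr2:102418689-102452565). IL18R1 stood at 0.192, 0.353 and 1.13 CPM in NC (3, 6 and 19 counts), 4.81, 7.30 and 5.59 CPM for EUC, 3.61, 4.78 and 5.00 CPM for EPL, 3.96, 4.31 and 4.95 CPM for SUC, and 2.68, 3.41 and 3.24 CPM for SPL. All stimulated libraries were above NC, and NC 3 was well above the other NC libraries. Both chains entered the test through the groups in which they were higher, so their fitted values against NC are given as a description. The fitted fold of IL18R1 was 10.3 for EUC (log2 3.37, SE 0.36), 7.80 for EPL (2.96, SE 0.36), 7.71 for SUC (2.95, SE 0.36) and 5.44 for SPL (2.44, SE 0.38). Without NC 3 these log2 values were 4.38, 3.98, 3.97 and 3.47. IL18RAP stood at 0.0640, 0.294 and 0.179 CPM in NC (1, 5 and 3 counts), 6.50, 8.07 and 9.07 CPM for EUC, 5.71, 7.01 and 5.62 CPM for EPL, 4.51, 4.25 and 4.82 CPM for SUC, and 4.22, 3.61 and 4.76 CPM for SPL. No stimulated library overlapped NC, and the E. coli libraries were above the S. aureus libraries. Its fitted fold was 41.5 for EUC (95% interval 26.9–64.2), 32.2 for EPL (20.6–50.3), 23.9 for SUC (15.0–37.9) and 22.1 for SPL (13.9–35.2). Per kilobase, IL18RAP stood at 0.240–1.26 times IL18R1 in the NC libraries, a wide range from few counts, and at 1.48–2.46 times in the stimulated ones.

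Among the genes next to this pair, IL1RL1 and IL1RL2 were nearly absent. IL1RL1, whose annotated span overlaps that of IL18R1, had at most 2 counts in any library, and IL1RL2 at most 1. The ligand IL18, at 5.53–12.95 CPM over all libraries, did not pass in any comparison with NC (log2 between −0.25 and 0.06). Of 5 genes of IL-18 receptor signalling, MYD88, the adaptor, rose in all 4 (log2 1.82, 1.78, 1.71 and 1.92), as did the kinase gene IRAK2 (4.70, 4.34, 4.07 and 4.13). Among all tested genes 10.9% rose in all 4 and 7.67% fell in all 4. IRAK1 fell in all 4 (−0.67, −0.54, −0.46 and −0.43), IRAK4 rose in EPL alone of the 4 tests (0.32, adjusted p = 0.00379), and TRAF6 did not pass. Whether the EPL value of IRAK4 differs from the others was not tested here. MYD88 and the IRAK genes also serve Toll-like receptors.

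The next comparison was between the species of the BEVs, with the mean of EUC and EPL set against the mean of SUC and SPL. IL7R was the only one of the 10 chains to be a DEG, 2.27-fold higher with E. coli BEVs (log2 1.18, SE 0.09, adjusted p = 1.07e-06, edgeR), where 0.663% of all tested genes were higher DEGs and 0.0233% lower ones. At the p threshold alone, which 2.87% of all tested genes passed as higher and 1% as lower, IL10RA was 1.75-fold higher (log2 0.81, SE 0.08, adjusted p = 1.07e-05), IL15RA 1.63-fold (0.71, SE 0.09, 0.000118) and IL18RAP 1.59-fold (0.67, SE 0.13, 0.0037). For these 4 chains all 6 E. coli libraries lay above all 6 S. aureus libraries, which held for 3.05% of all tested genes. The IL18RAP call was lost without EUC 2 (adjusted p = 0.0120), EPL 2 (0.0147), SUC 2 (0.0163), SPL 1 (0.0116) or SPL 2 (0.0158). The dose of E. coli BEVs was 1 μg/mL and that of S. aureus BEVs 10 μg/mL, so these are differences between preparations at different doses.

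The other 6 chains did not pass between the species. The log2 differences were 0.47 for IL18R1 (95% interval 0.05 to 0.89, adjusted p = 0.216), 0.16 for IL27RA (0.04 to 0.28, 0.117) and 0.11 for IL4R (0.00211 to 0.21, 0.281). They were −0.12 for IL6R (−0.23 to −0.00993, 0.239) and −0.21 for IL13RA1 (−0.35 to −0.08, 0.0534), and IL13RA1 was lower in all 6 E. coli than in all 6 S. aureus libraries (1.24% of all tested genes were), with 42.37 against 42.44 CPM at the nearest pair. IL2RA, with 36 and 22 counts in EUC and EPL against 15 and 8 in SUC and SPL, had a fitted difference of 1.302 (0.35 to 2.26, adjusted p = 0.114). IL27RA and IL4R thus differed between the preparations by at most 1.22-fold and 1.16-fold by their intervals, while the interval of IL7R began at 1.97-fold. Among the partner chains CRLF2 was 2.53-fold higher with E. coli BEVs (log2 1.34, SE 0.15, adjusted p = 1.92e-05), and IL6ST did not pass (0.09, adjusted p = 0.707). Among the ligands EBI3 was 1.77-fold higher (0.82, adjusted p = 4.94e-05).

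**Figure D3:**
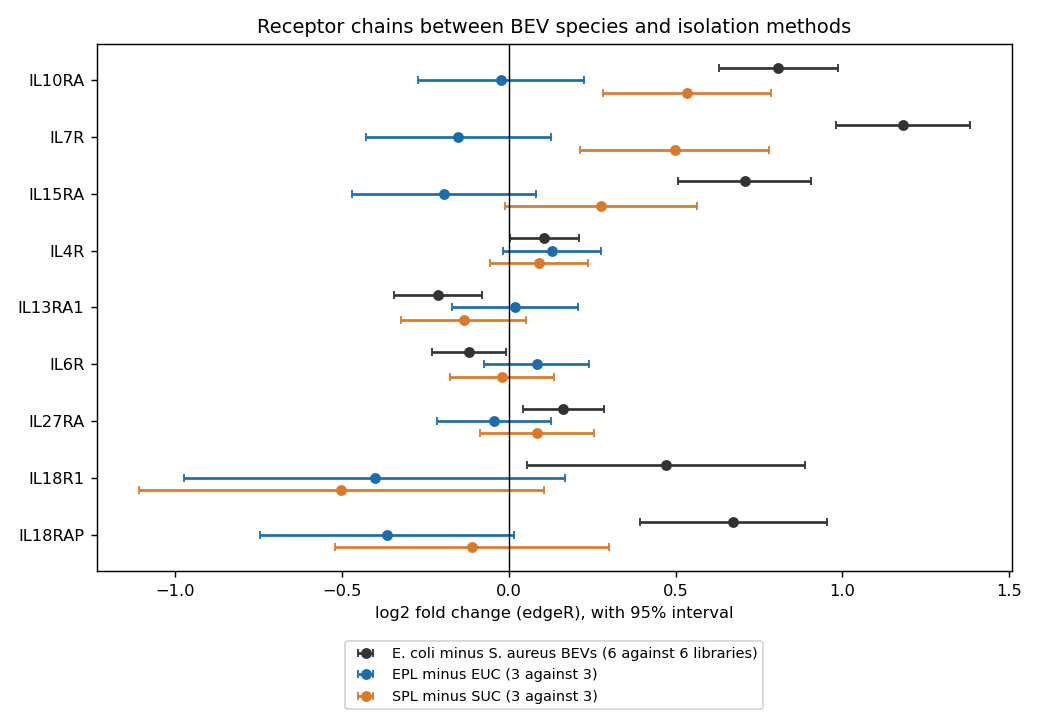
log2 difference of 9 receptor chains between E. coli and S. aureus BEVs (6 against 6 libraries) and between PL and UC isolation within each species (3 against 3), with 95% intervals from edgeR. IL7R was 1.18 higher with E. coli BEVs, and the isolation methods differed most for IL10RA with S. aureus BEVs, at 0.53.

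The last question was whether the isolation method changed the response. With E. coli BEVs no chain passed between EPL and EUC, nor did any other gene (0% called, smallest adjusted p 0.947, 604 genes at an unadjusted p under 0.05), and DESeq2 also called 0 of the 10. EUC 3 and EPL 1 stood apart from their groups. The chi-square per gene between 2 libraries was 46.2 and 22.6 for EUC 3 against EUC 1 and EUC 2. It was 18.6 and 20.3 for EPL 1 against EPL 2 and EPL 3, and 2.20–4.32 within NC. The part of this spread in the lack of calls was not tested, so that lack does not show an equal response. The differences (EPL minus EUC, log2) ran from −0.40 for IL18R1 (95% interval −0.97 to 0.17) and −0.37 for IL18RAP (−0.75 to 0.01) to 0.13 for IL4R (−0.02 to 0.28), leaving out IL2RA. The intervals allowed at most a 1.21-fold difference upward for IL4R, whose 3 EPL libraries were all above its 3 EUC libraries (3.11% of all tested genes), and a 1.17-fold one for IL10RA. IL7R had −0.15 (−0.43 to 0.13).

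With S. aureus BEVs no chain passed between SPL and SUC by edgeR, and 0.00581% of all tested genes did (1000 genes at an unadjusted p under 0.05). DESeq2 also called 0 of the 10. Here SUC 3 stood apart, with a chi-square per gene of 26.6 and 15.5 against SUC 1 and SUC 2, so the same limit holds. IL10RA was 1.45-fold higher in SPL (log2 0.53, 95% interval 0.28 to 0.79, unadjusted p = 0.000337, adjusted p = 0.523), and IL7R 1.41-fold (0.50, 0.21 to 0.78, unadjusted p = 0.0018, adjusted p = 0.727). For both, and for IL15RA (0.28, −0.01 to 0.56), the 3 SPL libraries were all above the 3 SUC libraries (6.87% of all tested genes), and for IL18R1 (−0.50, −1.11 to 0.11) they were all below (5.95%). IL10RA passed when the filter on low counts was left off (log2 0.53, adjusted p = 0.00112). The test of whether the method difference depends on the species called 0 chains and 0% of all genes (smallest adjusted p 0.0717, 659 genes at an unadjusted p under 0.05, 0 of the 10 by DESeq2). IL7R (−0.65, unadjusted p = 0.00309) and IL10RA (−0.56, unadjusted p = 0.004) had the smallest unadjusted p of the 10 there, both with an adjusted p of 1.

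The changes shifted the make-up of the receptor reads. The summed level of the 10 chains was 692–723 CPM in NC, 1214–1334 CPM for EUC, 1202–1349 CPM for EPL, 906–1005 CPM for SUC and 1054–1087 CPM for SPL. IL6R made up 80.4% ± 0.39 of it in NC and 32.7% ± 0.66, 34.9% ± 0.87, 49.8% ± 3.01 and 43.9% ± 1.36 in EUC, EPL, SUC and SPL (mean ± SD, n = 3). IL10RA went from 1.79% ± 0.18 in NC to 28.4% ± 1.71, 28.1% ± 0.82, 18.0% ± 2.41 and 23.3% ± 1.10. IL7R went from 0.151% ± 0.047 to 19.4% ± 0.55, 17.5% ± 1.67, 9.18% ± 1.24 and 11.6% ± 1.21. IL4R, in contrast, held 6.36% in NC and 6.07–7.71% in the group means after stimulation.

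**Figure D4:**
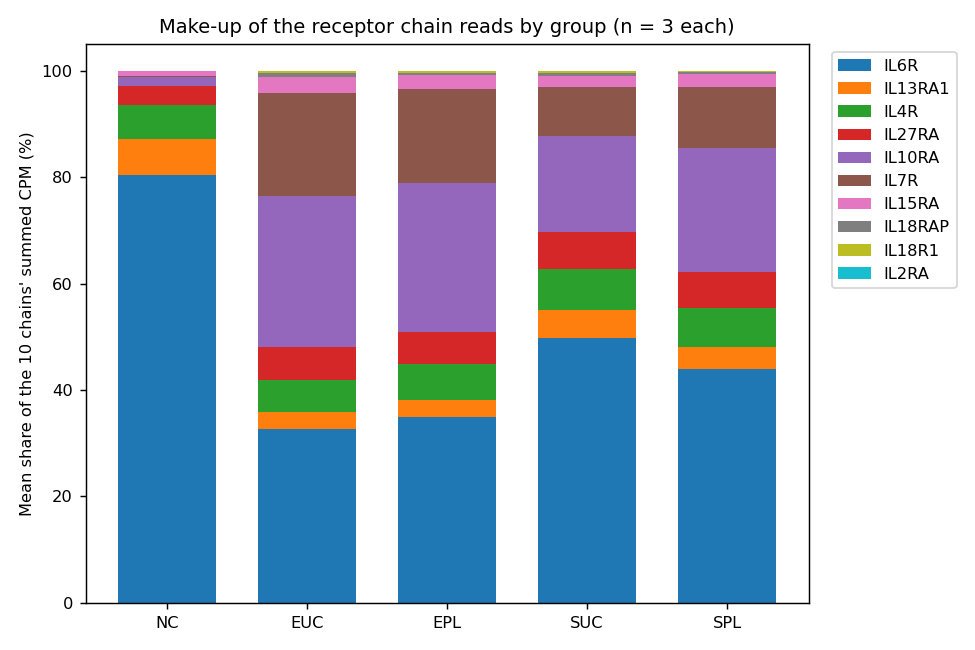
Mean share of each chain in the summed CPM of the 10 chains, as stacked bars by group (n = 3 libraries each). IL6R filled 80.4% of the NC bar and between 32.7% and 49.8% of the others, where IL10RA and IL7R took most of the difference.

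Levels of different genes were compared as CPM per kilobase of exon. The length counts the exon bases of all annotated transcripts of a gene, which may exceed that of the transcripts present. The orders here and the ratios per kilobase above depend on it. The order in NC was IL6R (81.9), IL13RA1 (10.3), IL27RA (8.42), IL4R (7.69), IL15RA (1.80), IL10RA (1.44), IL7R (0.180), IL18R1 (0.124), IL18RAP (0.0603) and IL2RA (0). The neighbours IL7R and IL18R1 overlapped in their libraries, as did IL18R1 and IL18RAP. In EUC the order was IL6R (60.1), IL7R (41.3), IL10RA (41.3), IL27RA (26.7), IL4R (13.2), IL15RA (10.6), IL13RA1 (8.62), IL18RAP (2.66), IL18R1 (1.31) and IL2RA (0.197). There IL7R (40.4–42.0) and IL10RA (36.5–45.3) overlapped, and IL15RA (8.93–12.3) overlapped IL13RA1 (8.03–9.11). In SUC, IL27RA (22.8) stood above IL10RA (19.4) and IL7R (14.6), with overlapping libraries for IL27RA and IL10RA (21.7–23.7 and 17.2–23.6). In SPL the values were 24.2, 28.2 and 20.5 for the same 3 genes.

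The genes of JAK-STAT signalling moved unevenly. Of 4 JAK genes 3 were tested and none was a DEG. Of all tested genes 9.43%, 9.38%, 6.82% and 7.76% were higher DEGs in EUC, EPL, SUC and SPL, and 5.75%, 5.15%, 3.06% and 3.7% lower ones. At the p threshold alone 2, 3, 1 and 3 of the 3 JAK genes rose, beside 16.5%, 16%, 12.4% and 13.3% of all tested genes. JAK2, picked with its values in view, rose in all 4 groups against NC (log2 0.52, 0.61, 0.46 and 0.43). JAK3, the kinase that binds the common γ chain, was too rare to test. STAT5A and STAT2 were higher DEGs in each comparison, as were 6.33% of all tested genes. STAT4 was one too, but it had only 6, 8 and 9 counts in the NC libraries. It thus entered the test through the stimulated groups, so it is named and not counted. STAT4 had log2 fold changes of 5.77, 5.62, 4.30 and 4.56 and was higher with E. coli than with S. aureus BEVs (1.27, adjusted p = 3.88e-07), as was STAT5A (3.34, 3.15, 2.22 and 2.51 against NC, 0.88 between the species, adjusted p = 3.88e-07). STAT5A is the factor best known downstream of IL-2, IL-7 and IL-15 receptors. STAT2 rose by 2.63, 2.72, 2.09 and 2.37. STAT3, the main factor of IL-6 and IL-10 signalling, did not pass in any of the 4.

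Of 8 SOCS genes, 2 rose and 2 fell in each comparison with NC, and 1 that fell, SOCS2, entered the test through NC. Of all tested genes 16.5%, 16%, 12.4% and 13.3% rose in EUC, EPL, SUC and SPL and 14%, 13.2%, 9.15% and 10.6% fell. SOCS3, which binds gp130, rose by 3.63, 3.52, 2.90 and 3.28 on the log2 scale, and SOCS1, an inhibitor of JAKs, by 1.44, 1.276, 0.79 and 1.06. CISH, a STAT5 target gene in lymphocytes, fell (−1.43, −1.53, −1.11 and −1.14), and SOCS2 fell (−2.89, −3.48, −2.78 and −2.15) from a level of 1.86–2.06 CPM in NC. It had 29–35 counts per library there and 1–11 in the stimulated libraries. The remaining 4 did not pass.

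**Figure D5:**
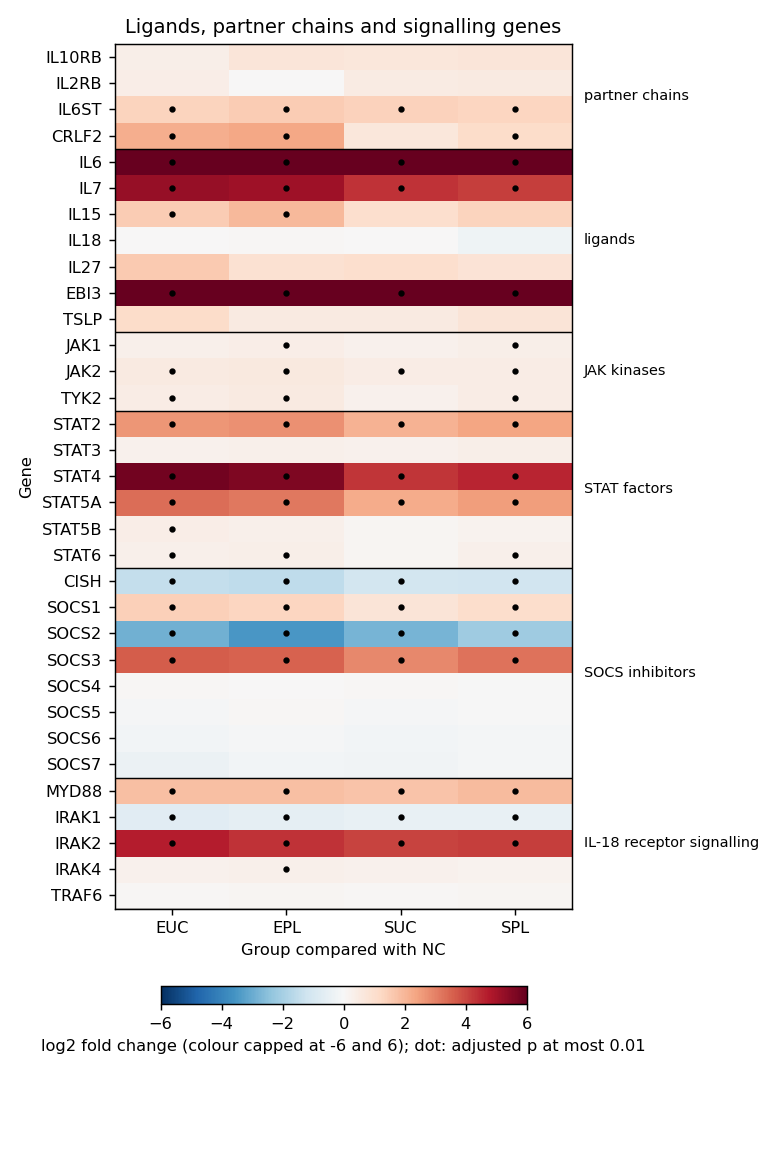
log2 fold change against NC of tested partner chains, ligands and signalling genes of the receptors (rows) in the 4 BEV groups (columns), with capped colours and a dot where the adjusted p was at most 0.01. EBI3 (9.58 in EUC), STAT4 (5.77) and IRAK2 (4.70) are among the strongest red rows, and SOCS2 (−2.89) and CISH (−1.43) are blue. The colours of IL6, with no count in NC, and of IL7, with 2, are fitted values that depend on the prior count.

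Of 26 listed interleukin receptor chains outside the 10, 17 were tested against NC. None was a higher DEG, where 9.43%, 9.38%, 6.82% and 7.76% of all tested genes were in EUC, EPL, SUC and SPL. SIGIRR, an inhibitory member of the IL-1 receptor family, and IL31RA, the private chain of the IL-31 receptor, were lower DEGs in all 4 comparisons, as were 2.41% of all tested genes. SIGIRR fell, with log2 fold changes of −1.77, −1.88, −1.59 and −1.504, from 31.7–36.8 CPM in NC to 7.31–16.5 CPM. IL31RA had −1.32, −1.60, −1.47 and −1.54. The number that rose at the p threshold was 2, 3, 3 and 3 in EUC, EPL, SUC and SPL, and the number that fell was 4, 2, 2 and 2. These counts stand beside 16.5%, 16%, 12.4% and 13.3% of all tested genes that rose and 14%, 13.2%, 9.15% and 10.6% that fell, so the share that passed the p threshold is not a result about these chains. The median log2 fold change of these chains was −0.16, −0.23, −0.23 and −0.17. CSF2RA and CSF2RB, the GM-CSF receptor chains, rose in all 4 (log2 0.46–0.72 and 0.58–0.97), and this pair was picked with its values in view.

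The genes whose log2 CPM ran most like that of each chain over the 15 libraries were sought among 12277 protein-coding genes of at least 1 CPM. The correlations rest largely on the step between NC and the stimulated libraries, which these genes share, and are given as a description. They were IL1A (Pearson r 0.9987) and PRDM1 (0.9982) for IL7R, PDE4B (0.9983) and EHD4 (0.9982) for IL10RA, and IL23A (0.9962) and PLK3 (0.9954) for IL15RA. For IL27RA MX1 is given (0.9964), for IL18RAP RNF144B (0.9953) and CD83 (0.9947), and for IL18R1 SAMD4A (0.984) and UPB1 (0.9681). For IL4R they were PNPLA1 (0.987) and DTX4 (0.9869), and for IL6R, which fell, THSD7A (0.9865) and ACTN1 (0.9842). IL2RA, with few counts, reached 0.9156 with ARFGAP3 and 0.9136 with TMEM158, and IL13RA1, which passed against NC in no group, 0.8873 with GOT2 and 0.8838 with TTC13.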

How the data were processed

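The 15 RNA libraries of THP-1 cells were grouped by their labelled treatments. The authors made libraries with an NEB kit, sequenced both ends of the fragments (150 bases), checked reads with FastQC 0.11.5 and aligned them to hg38 with HISAT2 2.1.0. The submitters' processing notes also name StringTie 1.3.3b, featureCounts and DESeq 1.28.0. The deposited values are whole-number read counts per Ensembl gene, not normalized. Strand setting and annotation: not given in the sources used here. Reads of overlapping genes on opposite strands therefore cannot be told apart, but no more than 5.59% of the exon bases of any of the 10 chains are shared with another gene.

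The deposited counts were analysed with edgeR 4.0.16 (R 4.3.3). After filterByExpr, 17198 genes with 99.85% of the counts remained. With TMM factors (0.9154–1.087), 1 quasi-likelihood model (glmQLFit, glmQLFTest) covered all 15 libraries, with no replicate block and Benjamini-Hochberg adjustment over all tested genes. Thresholds follow the study, which used DESeq2. Tests are two-sided and intervals 95%. CPM use TMM-normalized library sizes, and log2 CPM a prior count of 2. A gene without a count in NC has a floor of 3 counts over the group, which covers counting error only. Depth was 14399421 to 16637345 counted reads, so a gene with few counts, such as IL2RA, is imprecise.

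The receptor chains, gene lists and tests were chosen with earlier results of these data known. All 10 chains, their partner chains and ligands are named, up to 6 DEGs of each other list by mean change, and for each chain the 2 protein-coding genes of at least 1 CPM most correlated with it, except a few genes that are not reported here. ADAM10, ADAM17, IL18BP, IL13RA2, JAK2, JAK3, STAT3, IRAK1, IRAK4, TRAF6, CSF2RA, CSF2RB, IL1RL1 and IL1RL2 were added with their values in view. Positions and exon lengths come from GENCODE 44 and promoters from RefSeq (GRCh38.p14), which matched all 10 chains. The alternatives were DESeq2 1.42.0, its size factors, no filter, no fold threshold, a replicate block, the groups of each comparison alone, and leaving out each library. The code was tested on simulated data. Libraries of one group differed by more than sampling noise (chi-square per gene 2.20–46.2), so all were kept as separate samples.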

Additional observations from a re-analysis of the deposited data

How the results depend on the processing

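Across all alternatives, 958 values of the receptor chains kept their direction and their side of the threshold, 26 lost a call, 1 gained one and 15 changed sign. Without the fold threshold 1 chain, IL6R, was lower in each of EUC, EPL, SUC and SPL against NC, and 4 chains were higher with E. coli than with S. aureus BEVs. The lost calls were IL2RA, whose tests against NC are not used in the text, and IL6R in SUC (adjusted p up to 0.0214 and 0.0614), IL6R in SPL (up to 0.0282) and IL18RAP between the species (up to 0.0163). The gained call is IL10RA between SPL and SUC without the filter on low counts (0.53).

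The sign changes were in differences that did not pass, each with a library left out, and the ranges over left-out libraries follow. They were −0.00594 to 0.1001 for IL13RA1 in SUC against NC. In EPL against EUC they were −0.104 to 0.0481 for IL10RA, −0.0780 to 0.00742 for IL27RA and −0.0305 to 0.0725 for IL13RA1. They were −0.0611 to 0.0229 for IL6R in SPL against SUC. In the method difference between the species they were −0.0271 to 0.283 for IL18R1, −0.271 to 0.659 for IL2RA and −0.0075 to 0.0805 for IL4R. The cause was not tested.

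Replicate numbers did not pair the libraries: deviations of same-numbered libraries correlated at −0.452 to 0.183, with 4 of 18 pairs over 0.1, and 7 of 15 libraries correlated best with their own number. With the replicate block the higher DEGs among all 10 chains, those rare in NC included, numbered 7, 7, 7 and 6 in EUC, EPL, SUC and SPL and 1 between the species, and the block changed no call. With 3 libraries a group, genes of few counts such as IL2RA, IL18R1 and IL18RAP in NC are the least precise.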
